A study of Oryza sativa with 35 samples.

Results

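The DREB1/CBF genes of rice were followed through 3 days of chilling and 24 h of recovery in a tolerant and a sensitive line. The 8 loci were taken by their locus IDs: LOC_Os09g35030 (OsDREB1A), LOC_Os09g35010 (OsDREB1B), LOC_Os09g35020 (OsDREB1H), LOC_Os06g03670 (OsDREB1C), LOC_Os02g45450 (OsDREB1G), LOC_Os04g48350 (OsDREB1E), LOC_Os01g73770 (OsDREB1F) and LOC_Os08g43210. They are 8 of the 57778 loci in the deposited table, and 6 of them are among the 22961 loci whose mean FPKM (fragments per kilobase of transcript, scaled to sequencing depth) over 35 libraries was at least 0.5 and which were tested. OsDREB1F and LOC_Os08g43210 were below that level, were left out of the main tests and are described by their reads. The files annotate an AP2 domain in all 8. For LOC_Os08g43210 names differ: it was listed as OsDREB1J, but the annotation in the files calls it DREB1I and gives the name DREB1J to its neighbour LOC_Os08g43200, so the locus ID is used here.

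DC90 is a near-isogenic, chilling-tolerant line that carries the wild rice locus CTS-12 in the background of 9311. Its libraries are labelled W9 with a chilling-tolerant genotype and were taken to be DC90 on that basis, since the sample labels do not use the name DC90. The recurrent parent 9311 is an indica variety labelled chilling sensitive. Seedlings of both lines were 30 days old, were kept at 10 °C by day and 8 °C by night for 3 days, and then returned to normal growth for 24 h. RNA was sequenced from whole plants at 0, 12, 24 and 72 h of chilling and at 84 and 96 h (12 and 24 h into recovery), with 3 libraries per line and time except 9311 at 84 h, which has 2 (replicates 1 and 3).

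DREB1 proteins, also called CBF, are transcription factors that bind the dehydration-responsive element (also called the C-repeat) through their AP2 domain and switch on genes for protective proteins and sugars. In Arabidopsis the CBF genes are known for a fast, passing induction by cold, which starts with the bHLH factor ICE1 and is gated by the circadian clock. In rice, overexpression of several OsDREB1 genes is known to raise tolerance of cold, drought or salt. In the RefSeq gene order OsDREB1B, OsDREB1H and OsDREB1A lie next to each other on chromosome 9, and the other members lie on other chromosomes. The treatment of reads with more than 1 possible locus is not given in the sources used here, so values of these neighbouring, related genes could in part be shared. No sequences are printed, since the files used here hold none.

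Between 28004101 and 68927044 reads per library were assigned to loci. As a check of the sampled tissue, all 5 leaf markers (Rubisco subunits, Rubisco activase and chlorophyll-binding proteins) were above 0 in every library, and their summed level was 443 to 27134 FPKM. It was lowest at 72 and 84 h, at 443 to 4143 FPKM. The 5 root markers (silicon transporters Lsi1 and Lsi2, RCc3, a nitrate transporter and an aquaporin) summed to 3.05 to 439.6 FPKM, and 1 of them was at 0 in some library. Because whole plants were sampled, fewer cells of a type and less RNA per cell cannot be told apart. The samples at 12 and 84 h fall 12 h out of phase with the daily clock of 0, 24, 72 and 96 h. Hours of treatment and time of day therefore cannot be told apart where 12 or 84 h is compared with 0, 24, 72 or 96 h.

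Summed over the 8 members, DREB1 transcripts had their highest mean after 12 h of chilling in both lines and were low by 72 h. OsDREB1A, OsDREB1B and OsDREB1C each had their highest group mean at 12 h in both lines. OsDREB1G and OsDREB1E did so in neither line. OsDREB1G averaged 53.9 FPKM at 0 h and 33.8 FPKM at 12 h in DC90, against 31.6 and 29.7 FPKM in 9311. For OsDREB1E these means were 13.05 and 0.478 FPKM in DC90, against 5.49 and 1.08 FPKM in 9311. The summed level of the 8 members averaged 246.0 ± 179 FPKM before chilling, 386 ± 71.1 after 12 h, 177 ± 72.9 after 24 h, 31.6 ± 30.3 after 72 h, 23.8 ± 9.54 after 84 h and 8.41 ± 6.02 after 96 h in DC90 (SD, n = 3 each). In 9311 it averaged 76.1 ± 10.8 before chilling, 283 ± 176 after 12 h, 84.8 ± 14.4 after 24 h, 6.96 ± 3.71 after 72 h, 59.9 ± 53.0 after 84 h (n = 2) and 7.89 ± 5.72 after 96 h (SD, n = 3 for the others). In DC90 the order of the means was 12, 0, 24, 72, 84 and 96 h. Neighbours in that order overlapped in their libraries except 24 h against 72 h and 84 h against 96 h. In 9311 the order was 12, 24, 0, 84, 96 and 72 h, and the ranges overlapped for 24 h against 0 h, 0 h against 84 h and 96 h against 72 h but not for 12 h against 24 h or 84 h against 96 h.

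**Figure D1:**
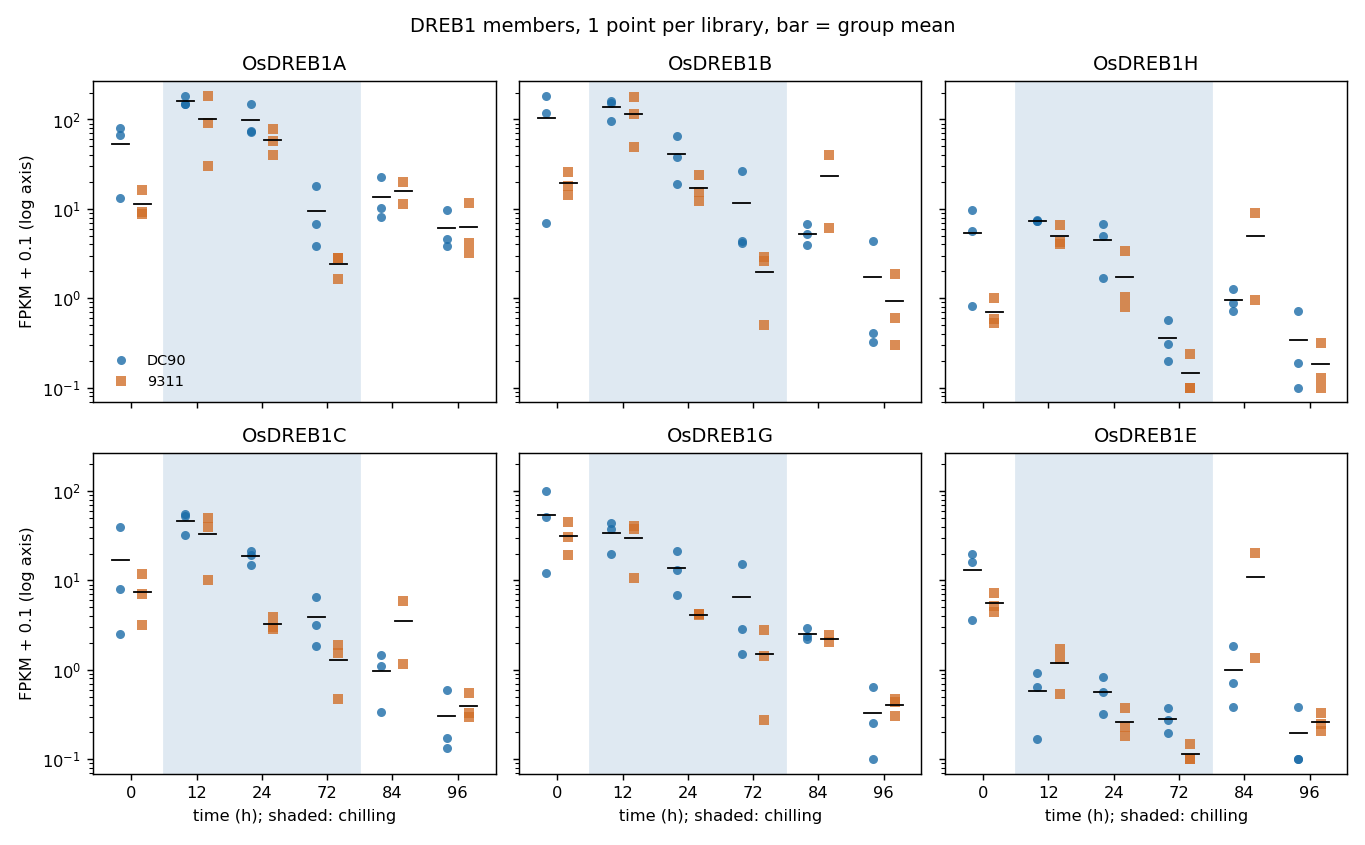
FPKM plus 0.1 on a log axis for the 6 tested DREB1 members, with 1 point per library (DC90 circles left, 9311 squares right), a bar at the group mean and chilling shaded. OsDREB1A, OsDREB1B and OsDREB1C have their highest group mean at 12 h in both lines, while OsDREB1E is below 2 FPKM in all libraries at 12, 24 and 72 h.

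Against 0 h of the same line, the calls were mostly decreases and they came late. All comparisons with 0 h share the 0 h libraries of that line. At 12 h, 1 of the 6 tested members fell in DC90, where 14.5% of all tested loci did. With edgeR's quasi-likelihood test no member rose after 12 h in DC90 (adjusted p at most 0.05, reached in the upward direction by 14.3% of loci). By an unadjusted p under 0.05 there was 1 (OsDREB1A), a threshold at which the share of all loci was not computed. Without replicate 2 at 0 h there was 1, DESeq2 called 1 (OsDREB1A) and limma called 2 (OsDREB1A and OsDREB1C). In 9311 at 12 h, 3 of 6 rose (OsDREB1A, OsDREB1H and OsDREB1C), beside 13.9% of loci. That count fell to 1 (OsDREB1A) when any 1 of the 3 libraries at 0 h, or replicate 1 or 3 at 12 h, was left out. At 24 h, 1 member fell in DC90, or 2 without replicate 3 at 0 h (background 20.5%), and in 9311 1 rose and 2 fell (background 20.7% and 20.4%).

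At 72 h all 6 tested members had fallen in both lines, where 21.6% of loci fell in DC90 and 24.9% in 9311. The median log2 fold change of the 6 was -3.36 in DC90 and -3.36 in 9311, against -0.07 and -0.05 over all loci tested in DC90 and 9311. The tissue markers moved with this fall: 4 of 5 leaf markers fell in each line, with a median of -4.02 in DC90 and -4.81 in 9311, and 3 of 5 root markers fell in DC90 (median -3.05) and 5 of 5 in 9311 (median -3.65). Their part in the fall of the members at 72 h was not tested. Leaving out replicate 2 of 9311 at 72 h brought the 9311 count to 2, and leaving out any other library of 0 or 72 h kept each count at 4 or more. In recovery, 5 members lay below 0 h in DC90 at 84 h (background 9.07%), and 1 did in 9311 (background 5.84%). At 96 h, 6 of 6 lay below 0 h in DC90 (background 4.74%) and 4 of 6 in 9311 (background 1.66%). The 9311 count at 96 h was 1 without replicate 1 of that time, 1 without replicate 2 and 2 without replicate 3. The median log2 fold change at 96 h was -6.26 in DC90 and -4.53 in 9311, against -0.02 over all loci in each line. The median of the leaf markers at 96 h was -1.32 in DC90 and -0.15 in 9311, and that of the root markers -1.76 in DC90 and -0.45 in 9311.

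**Figure D2:**
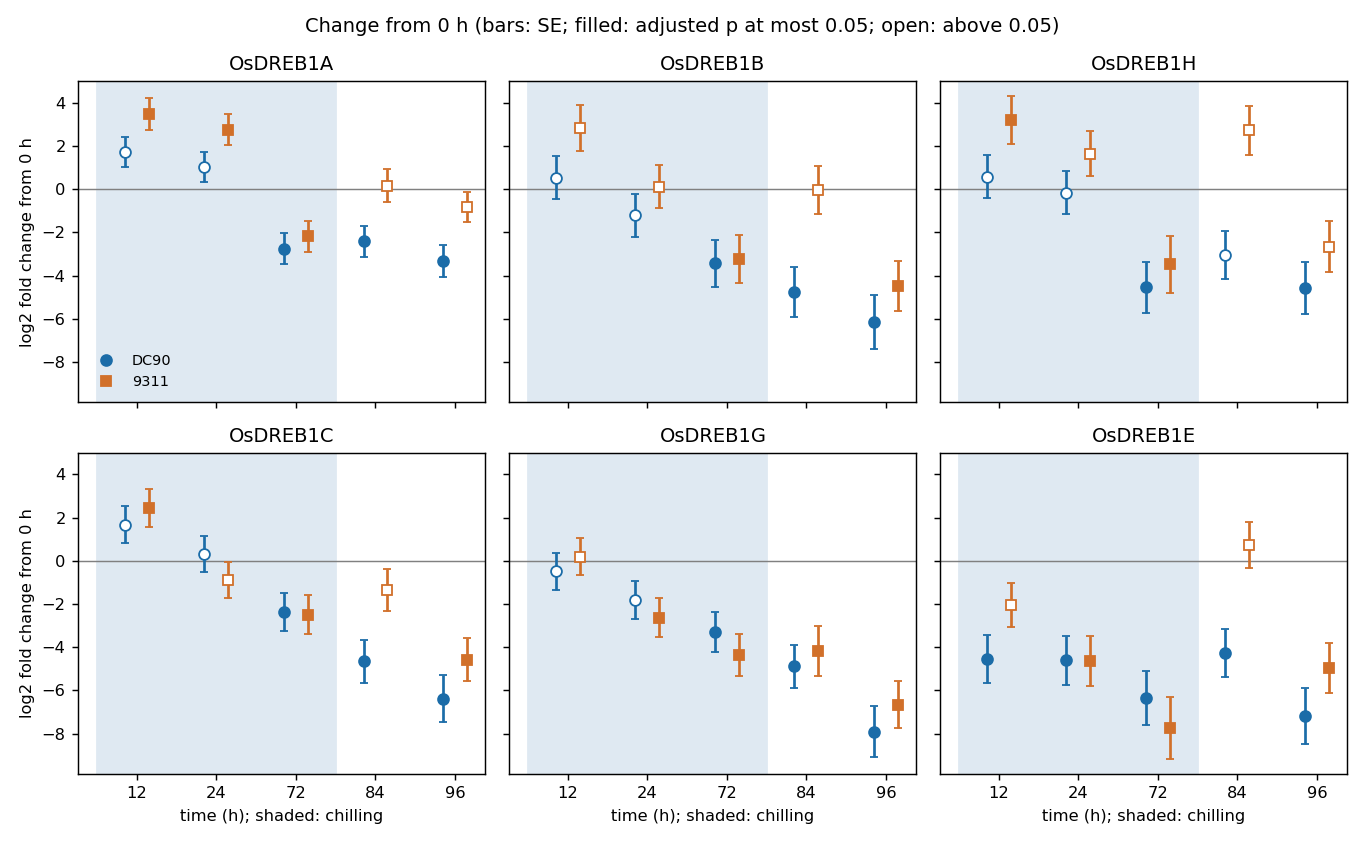
Log2 fold change from 0 h (edgeR) of the 6 tested members at 12, 24, 72, 84 and 96 h, with SE bars; DC90 circles stand left of 9311 squares and symbols are filled where the adjusted p was 0.05 or less. All 12 symbols of 72 h are filled and below 0, and the median of the members is -3.36 in each line.

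By the stricter thresholds of the study for a differentially expressed gene (DEG: a log2 fold change of 2 or more in either direction, with an adjusted p of 0.001 or less), 1 member was a DEG during chilling in DC90 (OsDREB1E, beside 11.7% of loci) and 2 in 9311 (OsDREB1E and OsDREB1G, beside 14.9%). During recovery 3 were DEGs in DC90 (OsDREB1C, OsDREB1E and OsDREB1G, beside 2.89%) and 1 in 9311 (OsDREB1G, beside 1.47%). All of these were decreases. These counts are from edgeR, while the study applied its thresholds with DESeq. In 9311 during chilling OsDREB1A was a further DEG, as an increase, with DESeq2 (at 12 and 24 h) and with no filter on low loci (at 12 h). DESeq2 also added decreases of OsDREB1A, OsDREB1H and OsDREB1G in DC90 during chilling. During recovery it added decreases of OsDREB1A, OsDREB1B and OsDREB1H in DC90 and of OsDREB1B, OsDREB1C and OsDREB1E in 9311. The calls sit close to the thresholds: without any 1 of the 3 DC90 libraries at 72 h the DC90 chilling count was 0. The 9311 chilling count was 1 without replicate 2 or 3 at 0 h or replicate 2 at 72 h and 0 without replicate 1 or 3 at 72 h. The DC90 recovery count was 0 without replicate 1 or 2 at 96 h and 1 without replicate 2 at 0 h. The 9311 recovery count was 0 without any 1 of its libraries at 0 or 96 h.

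OsDREB1A, for which overexpression in rice and Arabidopsis is known to give tolerance of cold, had the highest mean FPKM of the members at 12 h in DC90. Before chilling it had 81.0, 66.6 and 13.1 FPKM in DC90, against 16.2, 9.02 and 8.74 FPKM in 9311. At 12 h it had 185, 149 and 149.6 FPKM in DC90, against 91.5, 30.2 and 181 FPKM in 9311. Among the 3 DC90 libraries at 0 h, replicate 3 was the lowest, and its value lay inside the 9311 range. At 24 h OsDREB1A had 72.0, 74.1 and 149.5 FPKM in DC90, against 58.0, 78.0 and 40.0 FPKM in 9311. The 72 h values were 3.73, 17.9 and 6.75 FPKM in DC90, against 2.71, 1.53 and 2.75 FPKM in 9311. All DC90 libraries lay above all 9311 libraries at 72 h, and within each line 24 h and 72 h did not overlap. After 12 h of recovery (84 h) it had 10.1, 7.97 and 22.7 FPKM in DC90, against 11.1 and 20.0 FPKM in 9311. At 96 h it had 4.56, 9.70 and 3.73 FPKM in DC90, against 3.14, 4.08 and 11.4 FPKM in 9311, and the lines overlapped at both times.

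In 9311 the log2 fold change of OsDREB1A from 0 h was 3.47 ± 0.75 (SE, adjusted p = 0.0012) at 12 h and 2.76 ± 0.73 (SE, adjusted p = 0.0037) at 24 h. Both calls held with any 1 library left out (2.60 to 3.93 at 12 h). In DC90 the matching values were 1.72 ± 0.70 (SE, adjusted p = 0.067) and 1.01 ± 0.69 (SE, adjusted p = 0.25), so neither passed. Without replicate 3 of DC90 at 0 h the 12 h value was 1.26 (adjusted p = 0.23). By 72 h OsDREB1A had fallen below 0 h in DC90, with -2.75 ± 0.73 (SE, adjusted p = 0.0038), and in 9311, with -2.18 ± 0.72 (SE, adjusted p = 0.015). The 9311 call was lost without replicate 1 at 0 h or replicate 2 at 72 h (-2.36 to -1.87 over the omissions). The step from 24 h to 72 h was a fall, at -3.76 ± 0.76 (SE, adjusted p = 0.0027) in DC90 and -4.94 ± 0.81 (SE, adjusted p = 0.00019) in 9311, and both held with any 1 library left out (2 members fell in this step in DC90, beside 7.22% of loci, and 3 in 9311, beside 10.2%). In recovery OsDREB1A stayed below 0 h in DC90, with -2.40 ± 0.72 (SE, adjusted p = 0.026) at 84 h and -3.31 ± 0.75 (SE, adjusted p = 0.0059) at 96 h. The 84 h call was lost without replicate 1 at 0 h or without replicate 1 or 2 at 84 h (-3.02 to -1.91). In 9311 the values were 0.17 ± 0.76 (SE, adjusted p = 0.93) and -0.82 ± 0.69 (SE, adjusted p = 0.7).

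OsDREB1B, the chromosome 9 neighbour that is also known as a cold-inducible gene, varied widely among replicates. The 0 h values were 184, 118 and 6.81 FPKM in DC90, against 25.8, 14.1 and 18.1 FPKM in 9311. In DC90 replicate 3 was far below the other replicates there and lay below every 9311 library. At 12 h it had 153, 95.9 and 159.6 FPKM in DC90, against 114, 49.2 and 178 FPKM in 9311, and at 24 h 38.1, 19.0 and 66.1 FPKM in DC90, against 12.2, 15.4 and 23.9 FPKM in 9311. At 72 h it had 4.09, 26.2 and 4.33 FPKM in DC90, against 2.77, 0.404 and 2.499 FPKM in 9311, which did not overlap between the lines. The 84 h values were 5.09, 3.81 and 6.67 FPKM in DC90, against 5.999 and 40.0 FPKM in 9311, with the libraries of 9311 far apart, and at 96 h 0.225, 4.32 and 0.308 FPKM in DC90, against 0.199, 0.507 and 1.76 FPKM in 9311. In 9311 the change at 12 h was 2.83 ± 1.06 (SE, adjusted p = 0.051), just outside the threshold, and in DC90 it was 0.54 ± 0.99 (SE, adjusted p = 0.73). OsDREB1B had fallen by 72 h in DC90, with -3.43 ± 1.09 (SE, adjusted p = 0.014), and in 9311, with -3.24 ± 1.10 (SE, adjusted p = 0.017). The DC90 call was lost without replicate 1 at 0 h or replicate 1 or 3 at 72 h (-4.90 to -2.62), and the 9311 call without replicate 2 at 72 h (-3.61 to -2.75). In recovery it was at -4.75 ± 1.16 (SE, adjusted p = 0.0064) in DC90 and -0.02 ± 1.11 (SE, adjusted p = 1) in 9311. At 96 h it was -6.14 ± 1.25 (SE, adjusted p = 0.0022) in DC90 and -4.49 ± 1.16 (SE, adjusted p = 0.034) in 9311. The DC90 calls at 84 and 96 h held with any 1 library left out, and the 9311 call at 96 h was lost without any 1 of its 6 libraries (-5.68 to -4.02).

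OsDREB1H lies between OsDREB1B and OsDREB1A in the gene order and was the scarcest of these neighbours, with at most 9.59 FPKM. Untreated plants had 9.59, 5.53 and 0.718 FPKM in DC90, against 0.435, 0.904 and 0.480 FPKM in 9311. At 12 h it had 7.30, 7.39 and 7.18 FPKM in DC90, against 4.18, 3.90 and 6.49 FPKM in 9311. The DC90 libraries at 12 h lay above all 9311 libraries, and in 9311 the libraries at 12 h lay above all of those at 0 h. At 24 h OsDREB1H had 4.85, 1.60 and 6.65 FPKM in DC90, against 0.706, 0.936 and 3.31 FPKM in 9311. At 72 h it had 0.0981, 0.469 and 0.212 FPKM in DC90, against 0, 0 and 0.137 FPKM in 9311, from 5, 21 and 10 reads in DC90 and 0, 0 and 6 reads in 9311. The lines overlapped at 24 h, and at 72 h the highest 9311 library lay above the lowest of DC90. After 12 h of recovery there were 0.791, 0.624 and 1.17 FPKM in DC90, against 0.866 and 8.89 FPKM in 9311, and at 96 h 0, 0.626 and 0.0869 FPKM in DC90, against 0, 0.0283 and 0.218 FPKM in 9311. OsDREB1H rose in 9311 at 12 h, with 3.22 ± 1.11 (SE, adjusted p = 0.033), but that call was lost in 5 of the 6 omissions of 1 library, all except that of replicate 2 at 12 h (2.82 to 3.56). In DC90 the change at 12 h was 0.58 ± 1.00 (SE, adjusted p = 0.71). At 72 h it was lower, at -4.54 ± 1.19 (SE, adjusted p = 0.0034) in DC90 and at -3.48 ± 1.31 (SE, adjusted p = 0.03) in 9311. The 9311 call was lost without replicate 2 at 0 h or replicate 1 or 2 at 72 h (-7.84 to -2.89). The step from 24 h to 72 h was a fall in 9311, at -5.12 ± 1.33 (SE, adjusted p = 0.0085), and in DC90, at -4.38 ± 1.18 (SE, adjusted p = 0.017), the DC90 call being lost without replicate 3 at 24 h or replicate 1 or 3 at 72 h. At 96 h the change was -4.57 ± 1.19 (SE, adjusted p = 0.018) in DC90, lost without replicate 1 at 0 h or replicate 1 or 3 at 96 h (-6.66 to -3.73), and -2.65 ± 1.17 (SE, adjusted p = 0.29) in 9311.

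OsDREB1C, on chromosome 6, had its highest group mean at 12 h in both lines, and at 24 h the libraries of the lines stood apart. At 0 h it had 7.94, 40.0 and 2.41 FPKM in DC90, against 3.05, 11.8 and 7.02 FPKM in 9311. At 12 h it had 55.0, 32.4 and 52.2 FPKM in DC90, against 39.0, 9.93 and 49.3 FPKM in 9311, and at 24 h 19.2, 14.9 and 21.4 FPKM in DC90, against 2.79, 2.91 and 3.84 FPKM in 9311. The lines overlapped at 0 and 12 h, and at 24 h the lowest DC90 library was above the highest of 9311. At 72 h OsDREB1C had 1.73, 6.45 and 3.08 FPKM in DC90, against 1.44, 0.374 and 1.77 FPKM in 9311. The first recovery sample held 0.236, 1.35 and 1.00 FPKM in DC90, against 1.05 and 5.86 FPKM in 9311, and at 96 h 0.0319, 0.497 and 0.0717 FPKM in DC90, against 0.196, 0.230 and 0.451 FPKM in 9311. The lines overlapped at 72, 84 and 96 h. In 9311 OsDREB1C rose at 12 h, with 2.45 ± 0.88 (SE, adjusted p = 0.041), a call lost in 5 of 6 omissions, all except that of replicate 2 at 12 h (1.92 to 2.92). The change in DC90 was 1.67 ± 0.86 (SE, adjusted p = 0.15). The step from 12 h to 24 h was -1.34 ± 0.85 (SE, adjusted p = 0.45) in DC90, while in 9311 it was a fall, at -3.34 ± 0.92 (SE, adjusted p = 0.022), lost without replicate 3 at 12 h or any 1 library at 24 h (-3.80 to -2.81). OsDREB1G was the other member called in this step in 9311, at -2.82 (adjusted p = 0.05), lost in 5 of 6 omissions, all except that of replicate 2 at 12 h (-3.27 to -2.42). These 2 stand beside 3.67% of loci, and neither was called without any 1 library at 24 h. Hours of chilling and time of day cannot be told apart in this step. By 72 h OsDREB1C had fallen below 0 h, with -2.36 ± 0.88 (SE, adjusted p = 0.034) in DC90 and -2.49 ± 0.90 (SE, adjusted p = 0.024) in 9311. The DC90 call was lost without replicate 2 at 0 h or replicate 1 or 3 at 72 h (-3.0 to -0.77), and the 9311 call without replicate 2 at 0 h or replicate 1 or 2 at 72 h (-2.92 to -2.03). In DC90 it was -4.66 ± 0.99 (SE, adjusted p = 0.0017) at 84 h and -6.39 ± 1.09 (SE, adjusted p = 0.00037) at 96 h, and both held with any 1 library left out. In 9311 it was -1.35 ± 0.98 (SE, adjusted p = 0.46) at 84 h and -4.57 ± 1.00 (SE, adjusted p = 0.011) at 96 h, the last lost without replicate 1 or 2 at 96 h (-5.07 to -4.11).

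OsDREB1G, on chromosome 2, is a paralog that was already abundant before the chilling and showed no call for a rise at any time. At 0 h it had 50.8, 98.9 and 12.0 FPKM in DC90, against 19.1, 45.0 and 30.8 FPKM in 9311. At 12 h it had 37.1, 19.9 and 44.4 FPKM in DC90, against 37.9, 10.4 and 40.8 FPKM in 9311, and at 24 h 21.2, 6.70 and 13.04 FPKM in DC90, against 4.09, 3.98 and 4.06 FPKM in 9311. At 24 h the 3 libraries of 9311 stood close together, and all DC90 libraries were above them. At 72 h OsDREB1G had 1.40, 15.1 and 2.77 FPKM in DC90, against 1.31, 0.174 and 2.72 FPKM in 9311. In early recovery it had 2.80, 2.08 and 2.29 FPKM in DC90, against 1.95 and 2.32 FPKM in 9311, and at 96 h 0, 0.153 and 0.538 FPKM in DC90, against 0.208, 0.365 and 0.333 FPKM in 9311. It was the highest member at 0 h in 9311 and the one with the largest fitted fall at 96 h in DC90. Its change at 12 h was -0.49 ± 0.84 (SE, adjusted p = 0.71) in DC90 and 0.19 ± 0.84 (SE, adjusted p = 0.91) in 9311. At 24 h it was -1.82 ± 0.87 (SE, adjusted p = 0.095) in DC90, and in 9311 it was lower, at -2.64 ± 0.90 (SE, adjusted p = 0.02). That call was lost without replicate 2 at 0 h or any 1 library at 24 h (-2.91 to -2.35). At 72 h OsDREB1G was lower, at -3.30 ± 0.92 (SE, adjusted p = 0.0058) in DC90 and -4.35 ± 0.98 (SE, adjusted p = 0.00066) in 9311. At 84 h it lay at -4.89 ± 0.99 (SE, adjusted p = 0.0012) in DC90 and -4.19 ± 1.15 (SE, adjusted p = 0.02) in 9311. It was the only member called in 9311 at 84 h, and that call was lost without either library at 84 h (-4.46 to -3.91). At 96 h it reached -7.90 ± 1.17 (SE, adjusted p = 6.9e-05) in DC90 and -6.65 ± 1.10 (SE, adjusted p = 0.00082) in 9311, and the calls at 72 and 96 h held in both lines with any 1 library left out.

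OsDREB1E, on chromosome 4, was low in the chilled samples of 12, 24 and 72 h in both lines. At 0 h it had 16.1, 19.5 and 3.54 FPKM in DC90, against 4.34, 7.06 and 5.08 FPKM in 9311. At 12 h it had 0.550, 0.0690 and 0.814 FPKM in DC90, against 1.20, 0.440 and 1.61 FPKM in 9311, and at 24 h 0.722, 0.223 and 0.469 FPKM in DC90, against 0.0810, 0.128 and 0.274 FPKM in 9311. In both lines every library at 12 and 24 h lay below every library at 0 h. At 72 h it had 0.173, 0.269 and 0.0939 FPKM in DC90, against 0, 0.0471 and 0 FPKM in 9311, from 9, 14 and 5 reads in DC90 and 0, 3 and 0 reads in 9311. The 84 h libraries held 1.75, 0.281 and 0.618 FPKM in DC90, against 1.27 and 20.3 FPKM in 9311, and at 96 h 0, 0 and 0.284 FPKM in DC90, against 0.106, 0.1498 and 0.230 FPKM in 9311. The 84 h libraries of 9311 lay on either side of the 0 h range. In DC90 OsDREB1E fell at 12 h, with -4.55 ± 1.12 (SE, adjusted p = 0.0035), while in 9311 the change was -2.06 ± 1.01 (SE, adjusted p = 0.14). At 24 h it was lower, at -4.61 ± 1.13 (SE, adjusted p = 0.002) in DC90 and -4.64 ± 1.16 (SE, adjusted p = 0.0023) in 9311. At 72 h it was lower, at -6.36 ± 1.24 (SE, adjusted p = 0.00021) in DC90 and -7.74 ± 1.44 (SE, adjusted p = 9.1e-05) in 9311. With 3 reads in all at 72 h in 9311, the pooled reads per depth were 234 times lower than at 0 h (exact 95% interval 79.7 to 1140, counting error only). The calls at 12, 24 and 72 h held with any 1 library left out. At 84 h OsDREB1E was -4.28 ± 1.10 (SE, adjusted p = 0.0094) in DC90, lost without replicate 2 at 84 h (-5.18 to -3.89), and 0.71 ± 1.06 (SE, adjusted p = 0.76) in 9311. At 96 h it was -7.18 ± 1.30 (SE, adjusted p = 0.00069) in DC90 and -4.98 ± 1.16 (SE, adjusted p = 0.017) in 9311, the 9311 call being lost without any 1 library at 96 h (-5.32 to -4.72).

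OsDREB1F and LOC_Os08g43210 were near the limit of detection. OsDREB1F had at most 46 reads and 0.847 FPKM in a library and was at 0 reads in 18 of 35. Its reads were 10, 46 and 15 at 0 h, 11, 9 and 22 at 12 h, and 17, 0 and 33 at 24 h in DC90. In 9311 it had 9, 29 and 9 reads at 0 h, 22, 11 and 11 at 12 h, and 0, 3 and 0 at 24 h. At 72 h there were 0, 3 and 0 reads in DC90 and 0 in all 3 libraries of 9311. At 84 h it had 0 reads in DC90 and 6 and 0 in 9311, and at 96 h 0 in all 6 libraries. Against a floor of 3 reads over the group, OsDREB1F was at least 17.2-fold lower at 96 h than at 0 h in DC90 and at least 21.7-fold lower in 9311. Without replicate 2 at 0 h these limits were 8.49-fold in DC90 and 12.8-fold in 9311. In an edgeR fit with no filter this change at 96 h did not pass (adjusted p = 0.059 in DC90 and 0.10 in 9311). LOC_Os08g43210 had at most 11 reads, in replicate 2 of 9311 at 72 h, and 0 reads in 24 libraries. At 0 h it had 0, 4 and 7 reads in DC90 and 7, 2 and 6 in 9311.

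The make-up of the DREB1 pool differed between times. OsDREB1A gave 25.3 ± 7.61% of the summed FPKM at 0 h, 42.4 ± 6.38% after 12 h, 55.9 ± 8.98% after 24 h, 33.2 ± 6.08% after 72 h, 54.6 ± 9.76% after 84 h and 77.2 ± 15.8% after 96 h in DC90 (SD, n = 3). In 9311 its share was 15.3 ± 7.08% before chilling, 33.4 ± 5.51% after 12 h, 68.2 ± 13.1% after 24 h, 38.6 ± 14.5% after 72 h, 35.1 ± 20.6% after 84 h (n = 2) and 78.9 ± 2.92% after 96 h. The share of OsDREB1G was 24.6 ± 8.77% in DC90 and 40.7 ± 11.9% in 9311 at 0 h, and 3.90 ± 5.92% and 4.83 ± 2.30% in DC90 and 9311 at 96 h. These shares describe the libraries and were not tested.

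**Figure D3:**
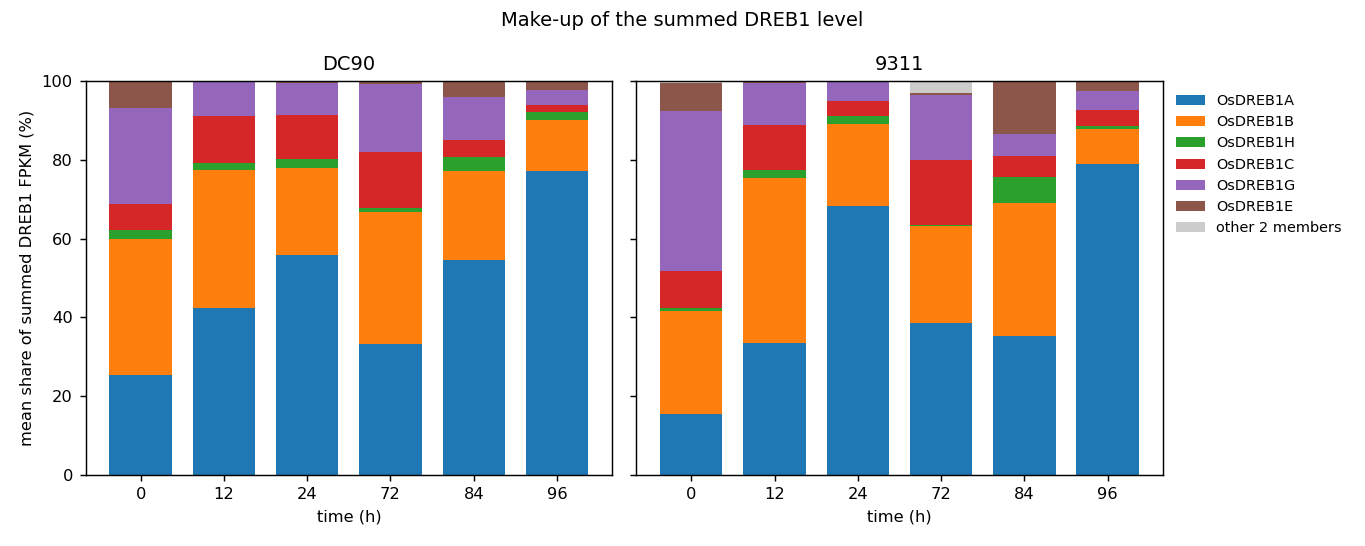
Mean share of each member in the summed DREB1 FPKM (%), by time, DC90 left and 9311 right; each bar is the mean over the libraries of a group. OsDREB1A takes 77.2% in DC90 and 78.9% in 9311 at 96 h, and OsDREB1G takes 24.6% and 40.7% at 0 h.

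Samples of recovery were also set against samples of chilling taken at the same clock phase, 84 h against 12 h and 96 h against 24 h. In DC90, 5 of 6 members were lower at 84 h than at 12 h (background 21.9%), with -4.12 (adjusted p = 0.00015) for OsDREB1A, -5.29 (adjusted p = 0.00095) for OsDREB1B, -6.33 (adjusted p = 3.8e-05) for OsDREB1C, -4.40 (adjusted p = 0.00078) for OsDREB1G and -3.62 (adjusted p = 0.012) for OsDREB1H. OsDREB1E was at 0.26 (adjusted p = 0.86). In 9311, 3 were lower (background 19.3%), namely OsDREB1A at -3.29 (adjusted p = 0.005), OsDREB1C at -3.80 (adjusted p = 0.0092) and OsDREB1G at -4.38 (adjusted p = 0.0046), each lost without replicate 1 at 84 h. OsDREB1B was at -2.86 (adjusted p = 0.076) and OsDREB1H at -0.50 (adjusted p = 0.77). OsDREB1E was higher at 2.77 (adjusted p = 0.05) (background 16.4%), at the threshold. This call was lost without any 1 library at 12 h, and without replicate 3 at 84 h the value was -0.41. Between 96 h and 24 h, 5 members fell in DC90 (background 24.4%) and 5 in 9311 (background 23.9%), all except OsDREB1E in each line. Their log2 fold changes ran from -6.72 (OsDREB1C) to -4.32 (OsDREB1A) in DC90 and from -4.60 (OsDREB1B) to -3.58 (OsDREB1A) in 9311, and every one of these 10 calls held with any 1 library left out. The pair of 96 h and 72 h, also of 1 clock phase, was not tested. In 9311 all libraries at 96 h had more OsDREB1A than all at 72 h, while in DC90 these times overlapped.

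The return to normal growth was followed next. The steps from 72 h to 84 h and from 84 h to 96 h join opposite clock phases. Rewarming and time of day cannot be told apart in them. From 72 h to 84 h, OsDREB1C fell in DC90, with -2.30 ± 0.90 (SE, adjusted p = 0.043) (background 21.4%), a call lost in 4 of 6 omissions, which were replicates 2 and 3 at 72 h and replicates 1 and 3 at 84 h (-2.76 to -1.66). The other members in DC90 were at 0.35 (adjusted p = 0.72) for OsDREB1A, -1.32 (adjusted p = 0.31) for OsDREB1B, 1.5 (adjusted p = 0.28) for OsDREB1H, 2.08 (adjusted p = 0.12) for OsDREB1E and -1.60 (adjusted p = 0.15) for OsDREB1G. In 9311, 4 of 6 members rose (background 23.8%). They were OsDREB1A at 2.36 (adjusted p = 0.014), OsDREB1B at 3.22 (adjusted p = 0.024), OsDREB1H at 6.20 (adjusted p = 0.00083) and OsDREB1E at 8.45 (adjusted p = 5.9e-05). Without replicate 3 the 84 h group is 1 library, assumed to vary like the other groups. On that assumption OsDREB1E was at 5.28 (adjusted p = 0.0063), and the other 3 calls were lost, with OsDREB1A at 1.80, OsDREB1B at 1.19 and OsDREB1H at 3.63. From 84 h to 96 h, 3 members fell in 9311 (background 1.05%), OsDREB1B at -4.46 (adjusted p = 0.038), OsDREB1H at -5.38 (adjusted p = 0.017) and OsDREB1E at -5.69 (adjusted p = 0.0073), and none of the 3 held without replicate 3 at 84 h. The falls of OsDREB1B and OsDREB1H were also lost without replicate 1 or 2 at 96 h, and that of OsDREB1E without replicate 2 at 96 h. Before that, the rise of OsDREB1B from 72 h was also lost without replicate 2 at 72 h. The rise and fall around 84 h in 9311 rests on 2 libraries at that time, of which replicate 3 is the higher for all 6 members. In that library the leaf markers summed to 682.6 FPKM and the root markers to 36.2 FPKM, against 1379 and 57.0 FPKM in replicate 1. Whether tissue make-up plays a part in the difference between these 2 libraries was not tested.

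DC90 and 9311 were then compared at each timepoint, the question being whether the introgressed segment goes with another DREB1 level. By edgeR's quasi-likelihood test no member passed at any of the 6 timepoints (adjusted p of 0.05 or less, log2 ratio of 1 or more in either direction), where 4.74% of loci passed at some timepoint. By an unadjusted p under 0.05 there were 3 members each at 0, 72 and 84 h, 1 at 24 h and 0 at 12 or 96 h. The share of all loci at that unadjusted threshold was not computed, and the 4.74% does not serve as its background. DESeq2 called 2 members, OsDREB1A at 0 h (2.39, adjusted p = 0.028) and OsDREB1E at 84 h (-3.64, adjusted p = 0.044), and limma called 0 with either pseudocount. At 0, 24 and 72 h the 6 log2 ratios of DC90 over 9311 were all above 0, with medians of 1.87, 1.41 and 2.05, against -0.00, 0.00 and -0.02 over all loci. At 12 h OsDREB1E was below 0 and the other 5 above, with a median of 0.37 against -0.02. At 84 h, OsDREB1G was above 0 and the other 5 below, with a median of -2.11 against 0.03.

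**Figure D4:**
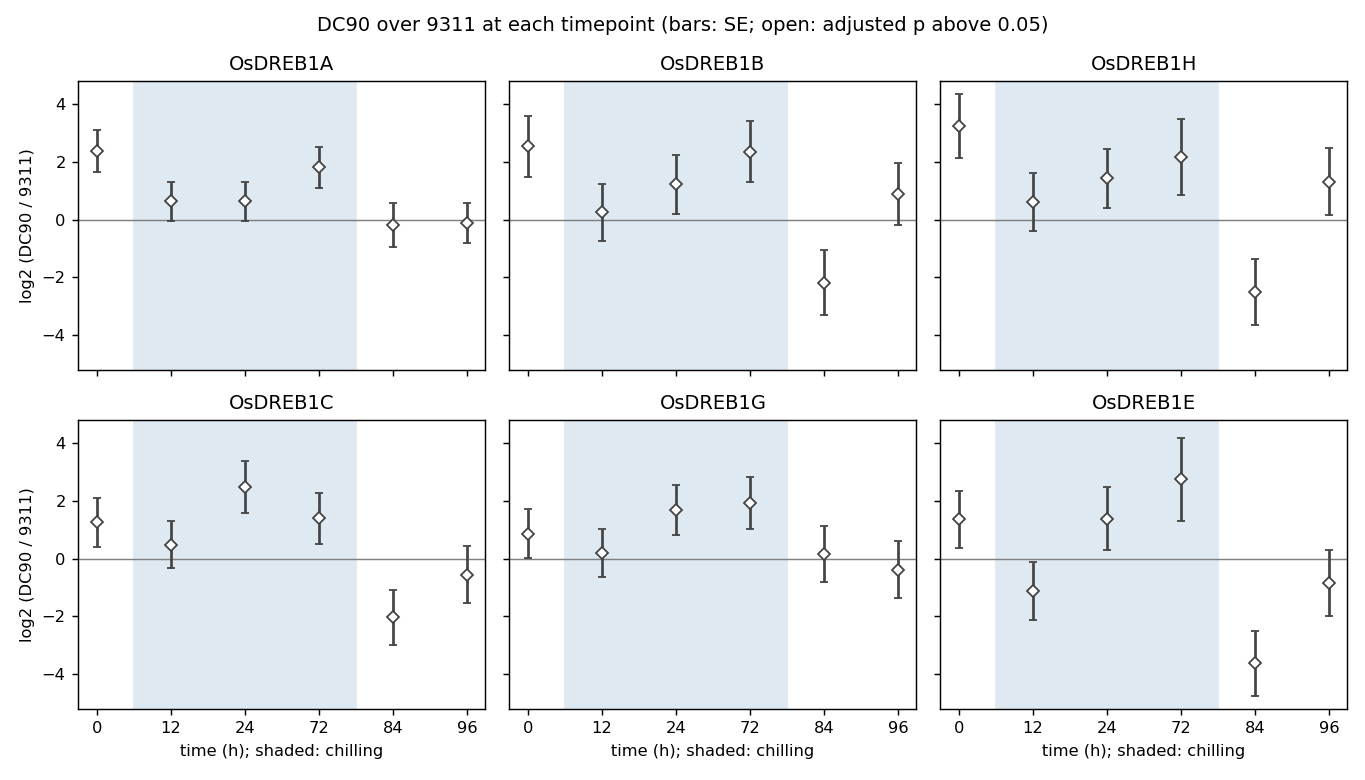
Log2 ratio of DC90 over 9311 (edgeR) for the 6 tested members at each of the 6 timepoints, with SE bars and chilling shaded; open symbols have an adjusted p above 0.05. All symbols are open, and the median over the members is 1.87 at 0 h, 2.05 at 72 h and -2.11 at 84 h.

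At 0 h the ratio was 2.38 ± 0.72 (SE, adjusted p = 0.19) for OsDREB1A, 2.54 ± 1.05 (SE, adjusted p = 0.48) for OsDREB1B and 3.24 ± 1.11 (SE, adjusted p = 0.31) for OsDREB1H. Replicates 1 and 2 of DC90 were above every 9311 library for these 3 genes, and replicate 3 was not above all of them for any. The root markers summed to 35.5, 36.7 and 439.6 FPKM in DC90 replicates 1, 2 and 3, against 111.2, 117.1 and 159.1 FPKM in 9311. The leaf markers summed to 17460.5, 12933.8 and 22428.0 FPKM in these DC90 replicates, against 20132.0, 19424.0 and 23652.0 FPKM in 9311. Both marker sums were thus highest in replicate 3 among the DC90 libraries at 0 h. The part of tissue make-up in the 0 h values was not tested. Without DC90 replicate 3 the ratio of OsDREB1A was 2.84 (adjusted p = 0.065), that of OsDREB1B 3.10 (adjusted p = 0.23) and that of OsDREB1H 3.75 (adjusted p = 0.15).

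At 24 h the ratio with the lowest p was that of OsDREB1C, at 2.49 ± 0.89 (SE, adjusted p = 0.21), whose DC90 and 9311 libraries did not overlap. With only the 24 h libraries in the fit it was 2.51 (adjusted p = 0.030), and with DESeq2 2.47 (adjusted p = 0.076). OsDREB1G, which did not overlap either, was at 1.68 ± 0.87 (SE, adjusted p = 0.42). At 72 h the ratios were 1.81 ± 0.72 (SE, adjusted p = 0.14) for OsDREB1A, 2.36 ± 1.06 (SE, adjusted p = 0.2) for OsDREB1B and 2.75 ± 1.43 (SE, adjusted p = 0.27) for OsDREB1E, for which all DC90 libraries lay above all 9311 libraries. For OsDREB1E this rests on 5 to 14 reads per library in DC90 and 0 to 3 in 9311. The share of all loci whose lines separate in this way was not computed, here or for the members above, so separations are only described. Leaf markers summed to 1240 to 2978 FPKM in DC90 at 72 h, against 443 to 2191 FPKM in 9311, and root markers to 21.2 to 32.1 FPKM in DC90, against 3.05 to 11.7 FPKM in 9311. Their part in the 72 h ratios was not tested. At 84 h the ratio of OsDREB1E was -3.63 ± 1.12 (SE, adjusted p = 0.18), and without replicate 1 of 9311, which leaves 1 library in that group that is assumed to vary like the other groups, it was -4.55 (adjusted p = 0.047). Without replicate 3 of 9311 it was -0.46 (adjusted p = 1.0).

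The difference in response itself, tested as the interaction of line and timepoint, was not called for any member by edgeR. During chilling the lowest adjusted p was 0.8 (OsDREB1E), where 0.270% of loci had an adjusted p of at most 0.05. By an unadjusted p under 0.05 there were 0 members in chilling. During recovery the lowest adjusted p was 0.19 (OsDREB1H), where 0.148% of loci were called by the adjusted threshold of 0.05. An unadjusted p under 0.05 in recovery was found for 4 members (OsDREB1A, OsDREB1B, OsDREB1H and OsDREB1E). How many loci reach that unadjusted level was not computed, so the 0.148% is not a background for these 4. DESeq2 called 1 member, OsDREB1H in recovery (adjusted p = 0.043), and limma 0. The rise of OsDREB1A, OsDREB1H and OsDREB1C at 12 h in 9311 and its lack of a call in DC90 was thus not shown to differ between the lines. The SE of the log2 ratio of the lines was 0.68 or more for every member at every timepoint.

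Much of that spread was shared among the members. In DC90 at 0 h, replicate 3 was the lowest of its group for all 6 members, by a mean of -1.97 on the log2(FPKM + 0.1) scale. In 9311 at 12 h, replicate 2 was the lowest for all 6 (mean -1.06), and in DC90 at 72 h replicate 2 was the highest for all 6 (mean 1.18). Over the 35 libraries, deviations from the group mean had a Pearson r of 0.84 for OsDREB1A with OsDREB1B, 0.86 for OsDREB1B with OsDREB1H and 0.65 for OsDREB1A with OsDREB1H, the chromosome 9 neighbours. Pairs on different chromosomes reached 0.74 (OsDREB1B with OsDREB1C), and the lowest pair was OsDREB1A with OsDREB1E at 0.37. The libraries share tissue make-up and depth across genes, and these values are given as a description.

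**Figure D5:**
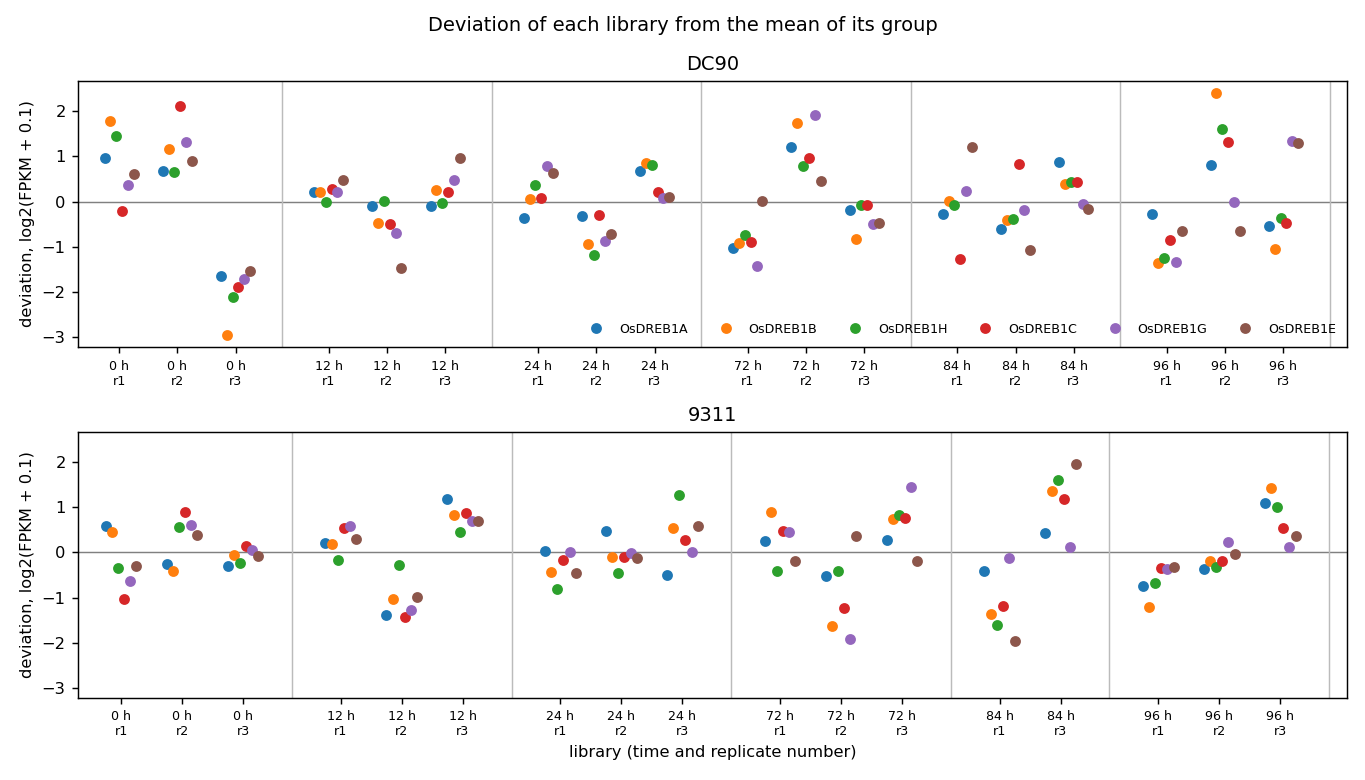
Deviation of each library from the mean of its group on the log2(FPKM + 0.1) scale for the 6 tested members (colours), DC90 above and 9311 below, by time and replicate number. In DC90 replicate 3 at 0 h all 6 members lie below 0 (mean -1.97), and in DC90 replicate 2 at 72 h all 6 lie above (mean 1.18).

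Other genes of the cold pathway were read beside the family. Of 4 further DREB genes, OsDREB1D was at 0 FPKM in every group and LOC_Os08g43200 was also below the filter. OsDREB2B, a DREB2 factor known for responses to heat and drought, averaged 18.4 ± 3.81 FPKM before chilling, 71.1 ± 13.3 after 12 h, 131 ± 17.0 after 24 h and 99.5 ± 16.5 after 72 h in DC90, and 19.6 ± 5.17, 89.5 ± 28.7, 172 ± 11.6 and 96.1 ± 3.996 FPKM at these times in 9311 (SD, n = 3). It was still above 0 h at 72 h, with 2.27 ± 0.27 (SE, adjusted p = 4.6e-07) in DC90 and 2.42 ± 0.27 (SE, adjusted p = 1.2e-07) in 9311, when the 6 DREB1 members were below. OsDREB2A was above 0 h at 24 and 72 h in both lines, with 1.42 (adjusted p = 0.0012) in DC90 and 1.35 (adjusted p = 0.0014) in 9311 at 72 h.

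Of 8 genes placed upstream of DREB1 in rice or Arabidopsis, 1 rose and 3 fell at 72 h in DC90, and 2 rose and 2 fell in 9311. Over all loci 18.6% rose and 21.6% fell in DC90 at that time, and 23.9% rose and 24.9% fell in 9311. The bHLH factor OsICE1 passed at no time in either line, with 0.06 (adjusted p = 0.96) in DC90 and -0.21 (adjusted p = 0.86) in 9311 at 12 h. Its paralog OsICE2 was higher at 12 h, with 0.90 (adjusted p = 0.039) in DC90 and 1.02 (adjusted p = 0.022) in 9311, and lower at 72 h. COLD1, a regulator of G-protein signalling in cold sensing, rose at 72 h by 1.31 (adjusted p = 5.9e-05) in DC90 and 1.20 (adjusted p = 0.00012) in 9311. OsLHY, a morning clock gene, averaged 460.5 ± 109 FPKM before chilling, 205 ± 45.3 after 12 h and 88.5 ± 15.2 after 24 h in DC90. It then averaged 59.1 ± 10.3 after 72 h, 6.83 ± 2.37 after 84 h and 260.6 ± 64.2 FPKM after 96 h. In 9311 the values at these times were 564 ± 72.3, 202 ± 64.3, 86.45 ± 5.24, 53.6 ± 11.5, 3.63 ± 0.458 and 310.2 ± 95.75 FPKM. The samples of 12 and 84 h are 12 h out of clock phase with the others. OsLHY had fallen at 72 h, taken at the clock phase of 0 h, with -3.27 (adjusted p = 1.6e-07) in DC90 and -3.44 (adjusted p = 5.1e-08) in 9311. Neither OsLHY nor any other of the 8 passed between the lines by the thresholds used for DREB1. An unadjusted p under 0.05 was found for 1 gene each at 0, 24 and 72 h, 3 at 12 h and 2 at 84 h. The share of all loci at that unadjusted threshold was not computed.

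Dehydrins, galactinol synthases and other genes of the kind that DREB1 proteins are known to activate were followed as well. Of 10 such genes, of which 9 were tested, 7 rose at 12 h in DC90 and 6 in 9311 (beside 14.3% and 13.9% of loci in DC90 and 9311), and at 72 h 4 lay above 0 h in DC90 and 2 in 9311 (beside 18.6% and 23.9% of loci in DC90 and 9311). The dehydrin RAB16A, a protein that protects cells on water loss, averaged 85.2 ± 63.7 FPKM in DC90 and 28.3 ± 40.0 FPKM in 9311 at 72 h, and 0.367 ± 0.360 and 0.745 ± 0.541 FPKM in DC90 and 9311 at 0 h. Its log2 fold change at 72 h was 7.43 ± 1.10 (SE, adjusted p = 8.9e-06) in DC90 and 5.17 ± 1.00 (SE, adjusted p = 0.00014) in 9311. RAB16A is induced by abscisic acid through elements other than that of DREB1. Whether DREB1 acts on any of the listed genes in these samples was not tested. OsGolS2, a galactinol synthase of the raffinose pathway, averaged 4.78 ± 0.791 FPKM before chilling, 132 ± 22.4 after 12 h, 177 ± 44.5 after 24 h and 13.4 ± 3.27 after 72 h in DC90, and 3.85 ± 1.06, 103 ± 65.2, 103 ± 36.2 and 12.0 ± 2.71 FPKM in 9311. None of them passed the thresholds between the lines by edgeR, the ratio of RAB16B at 72 h being 2.42 (adjusted p = 0.12). An unadjusted p under 0.05 was found for 3 genes each at 12 and 72 h, for 4 at 24 h and for 2 at 96 h. For these counts too the share of all loci was not computed.

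The loci whose course was most like that of a member were found by Pearson r of log2(FPKM + 1) over the 12 group means, which share their libraries and treatment. For OsDREB1A the closest was LOC_Os05g36970, annotated as the ovate-family repressor OFP8 (r = 0.966). OsDREB1B was closest to OsDREB1C itself (r = 0.956), and OsDREB1C to LOC_Os03g44380, annotated as NCED3, the enzyme of the committed step of abscisic acid synthesis (r = 0.973). OsDREB1G was closest to LOC_Os11g05380, annotated as CYP94C1, which in Arabidopsis oxidizes a jasmonate conjugate (r = 0.975). OsDREB1H was closest to LOC_Os07g06250, which has no described function in the files (r = 0.931). OsDREB1E was closest to LOC_Os01g56240, annotated as the auxin-responsive SAUR40 (r = 0.95), and its r with the other members was 0.145 to 0.522.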

How the data were processed

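Whole plants of DC90 (18 libraries) and 9311 (17 libraries) were sequenced at 6 timepoints. The authors aligned paired-end reads with HISAT2 to Release 7 of the Rice Genome Annotation Project. They deposited a raw count and an FPKM value per locus and library, and the counting tool is not given in the sources used here. The methods describe the replicates as biological, with 28004101 to 68927044 counts per library.

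The deposited counts were tested with edgeR 4.0.16 (R 4.3.3, quasi-likelihood, TMM) in 1 fit of 12 groups over the 22961 loci with a mean FPKM of at least 0.5, with Benjamini-Hochberg adjustment in each contrast. A member rose or fell at an adjusted p of at most 0.05. The SE is approximate, the absolute log2 fold change divided by the square root of F. The deposited FPKM values served for levels, shares and correlations. Alternatives used DESeq2 1.42.0, limma 3.58.1 on log2(FPKM + 1) and log2(FPKM + 0.1), other filters, size factors and thresholds, a replicate block, and each library left out. The fit was tested on simulated data. Intervals and floors cover counting error only. The loci named are the members, the loci of the pathway and marker lists, and the closest loci by r. The members were taken by locus ID, and they and the lists were chosen with earlier results of these data known. Tables and figures used Python 3.11.15, pandas 2.3.3, numpy 2.4.6 and matplotlib 3.10.9.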

Additional observations from a re-analysis of the deposited data

How the results depend on the processing

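Of 70 calls of a member in a comparison within a line, 65 to 70 kept their direction and side of the threshold under each other filter, scaling, tool or fit, and 39 kept them with each library left out in turn. The reversed value was that of OsDREB1E in 9311 at 84 h against 12 h, at -0.41 without 9311 84 h replicate 3 (-0.41 to 3.68 with 1 library left out). Counts of members past the strict thresholds moved most. DC90 in chilling had 1 member, against 2 with limma on log2(FPKM + 1), 4 with DESeq2 and 6 with looser thresholds (absolute log2 fold change of at least 1, adjusted p of at most 0.05), and 0 to 1 with 1 library left out. DC90 in recovery had 3, against 1 with only that line in the fit, 6 with DESeq2, 6 with looser thresholds and 0 to 4 with 1 library left out. 9311 in chilling had 2, against 1 with the replicate block, 3 with DESeq2, 3 with no filter, 6 with looser thresholds and 0 to 3 with 1 library left out. 9311 in recovery had 1, against 0 with the replicate block, 0 with only that line in the fit, 4 with DESeq2, 4 with looser thresholds and 0 to 1 with 1 library left out. Members that differed between the lines numbered 0, against 1 with only the groups compared in the fit, 2 with DESeq2 and 0 to 1 with 1 library left out. Members whose response differed numbered 0, against 1 with DESeq2. Members that rose at 12 h in DC90 numbered 0, against 2 with limma at either pseudocount, 1 with DESeq2 and 0 to 1 with 1 library left out. With 1 library left out, 1 to 4 rose at 12 h in 9311, 2 to 6 fell at 72 h and 1 to 3 fell at 96 h. The cause of these shifts was not tested. On average, same-numbered libraries did not deviate together: their mean r was 0.00 (-0.42 to 0.46, and -0.44 to 0.45 for libraries of other numbers). Of 35 libraries, 16 deviated most like those of their own number, and the number expected without pairing was not computed. Pairing within single times or within 1 line was not tested. With the replicate block 67 of 70 calls held. OsDREB1F and LOC_Os08g43210 were below the filter of the main fit. With no filter, edgeR called OsDREB1F lower than 0 h in DC90 at 84 h (adjusted p = 0.029) and in 9311 at 72 h (adjusted p = 0.016). In DC90 it was also lower at 84 h than at 12 h (adjusted p = 0.013) and at 96 h than at 24 h (adjusted p = 0.011). These calls rest on at most 46 reads per library. LOC_Os08g43210 was called in no comparison in that fit.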
